A study of Saccharomyces cerevisiae with 12 samples.

Results

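The genes described here encode the proteins of the small (40S) subunit of the cytosolic ribosome of Saccharomyces cerevisiae. They were chosen by name, as every gene whose standard name in the yeast reference annotation R64 is RPS, a number and at most the letter A or B. The annotation holds 56 such genes and 55 of them had a row in the deposited table; RPS26A is not analysed here. A value on all 12 arrays was present for 47 of the 55, out of 5672 open reading frames (ORFs) with 12 values and 6150 ORFs in the table, and tests were made on these 47. The other 8 are described by their values alone.

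Strain BY4741, a haploid laboratory strain that lacks the functional forms of several marker genes, was pregrown on glucose and spread on nylon membranes on solid YP acetate, where growth depends on respiration. Pure CO, which displaces oxygen and also binds reduced heme, was applied in 1 series, and pure N2, which displaces oxygen alone, in the other. Cells were taken after 15, 30, 45, 60 and 120 min and after 24 h, and the study asked how transcript levels followed the loss of oxygen under each gas. Each array set gas-exposed RNA (Cy5) against RNA of cells that stayed in room air as long (Cy3), with 1 array per gas and time, no replicate array and no dye swap. The description of the arrays in the labels says that such cells stop dividing reversibly, and both channels of every array carried the same strain and medium. Values are log2 ratios of gas over air, so that -1 is a level 2-fold lower than in air; the labels state neither the base nor the direction, and both are read from the spread of the values and from the dye of each channel. The 6 times of a gas stood in for replicates, so no p-value below is set against the scatter among cultures. In the main limma tests within a gas, the scatter between times was pooled over both gases. A gene's SE is therefore the same in CO and N2, and 6 arrays beside an SE are those of the mean. Where time was added as a block, the differences between times were taken out of the error. Comparisons of gases or of times used the scatter left in their own fits. A fixed dye bias would stay in the ratios to air but cancels between times or gases. Each time had its own air RNA, so a rise or fall of a ratio between times can come from the gas-exposed or from the air cells. Whole-culture RNA was measured, in which fewer cells that express a gene and less RNA per cell cannot be told apart. Most 40S proteins are encoded by an A and a B copy of very similar sequence, and because the array's probe sequences were not used here, signal of one copy on the probe of the other cannot be told apart from its own.

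The 40S subunit binds messenger RNA, scans it for the start codon and decodes it. In yeast the ribosomal protein genes are among the most highly transcribed in fast growth and are switched together: Rap1 marks their promoters, Fhl1 recruits the coactivator Ifh1, and Sfp1 and the TORC1 and protein kinase A pathways link them to nutrients. Their transcripts are known to fall together in many stresses and when growth stops. Each subunit contains 1 copy of each protein, whichever gene of a pair supplied it.

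The 40S genes were near or slightly above the air level at 15 min, lower on the arrays of 45, 60 and 120 min in both gases, lowest at 120 min, and partly back at 24 h. In CO the median over the 47 genes was 0.27, -0.21, -0.58, -1.25, -2.21 and -1.30 at 15, 30, 45, 60 and 120 min and 24 h. In N2 it was 0.06, -0.94, -1.26, -0.90, -1.88 and -1.29 at the same times. The 2 courses thus started and ended close together, but N2 had most of its early drop by 30 min while CO went down over successive arrays to 120 min. The median over all 5672 ORFs stayed between -0.17 and 0.00 on the CO arrays and between -0.04 and 0.01 on the N2 arrays.

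**Figure D1:**
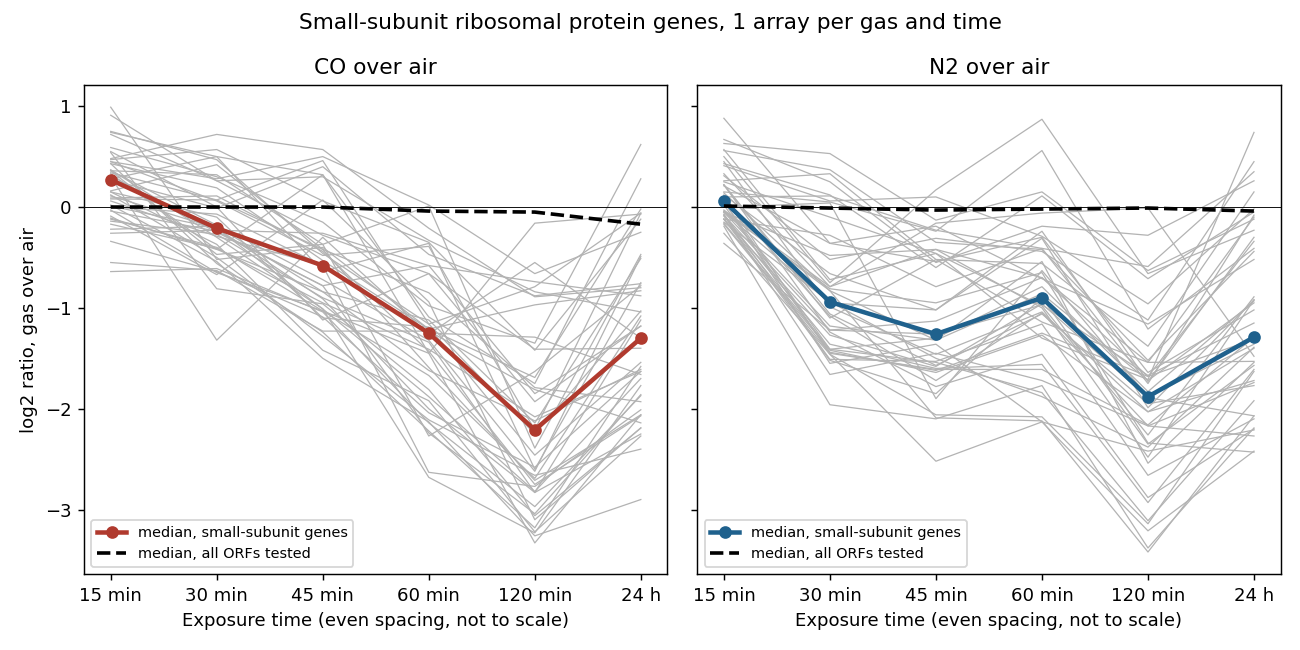
Log2 ratio of gas over air (vertical axis) against exposure time (horizontal axis, even spacing) for the 47 small-subunit genes, CO left and N2 right. Grey lines are single genes, the coloured line their median (-2.21 in CO and -1.88 in N2 at 120 min) and the dashed line the median of all 5672 ORFs; there is 1 array per gas and time, so no error bar is drawn.

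The number of 40S genes at least 2-fold below air followed the same course. In CO it was 0, 1, 13, 32, 38 and 30 of 47 at the 6 times in order. Over all ORFs tested, the share at least 2-fold below air on those CO arrays was 0.494%, 2.82%, 6.1%, 9.73%, 13.4% and 21.3%. In N2 it was 0, 21, 27, 20, 40 and 26 of 47, beside 0.37%, 3.72%, 6.63%, 8.62%, 11.9% and 20.7% of all ORFs. None of the 47 genes was 2-fold above air on any array, and at 120 min all 47 were below 0 in both gases. The lowest of a gene's 6 values fell at 120 min for 37 of the 47 genes in CO and for 40 in N2. The genes also drew apart with time: the standard deviation between genes was 0.352 at 15 min and 0.874 at 120 min in CO, and 0.273 and 0.805 in N2.

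Between single arrays, the drop in N2 from the array of 15 min to that of 30 min had a median of -1.13 and was negative for 44 of 47 genes. The same step in CO had a median of -0.28 and was negative for 39. A drop of at least 0.5 in that step was found in 35 genes in N2, beside 9.13% of all ORFs, and in 16 in CO, beside 9.03%. From 45 to 60 min N2 ran the other way, with a median step of 0.30. The partial return from 120 min to 24 h had a median of 0.85 in CO, where 41 genes were higher at 24 h, and of 0.79 in N2, where 43 were. A rise of at least 0.5 in that step was present in 32 genes in CO, beside 27.5% of all ORFs, and in 36 in N2, beside 32.1%. With 1 array per point, none of these steps has an error of its own. They are steps of the ratio to air, and a change in the air cells between the times cannot be told apart from one under the gas.

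The arrays of 60 and 120 min were compared with those of 15 and 30 min in one fit over both gases (limma, Benjamini-Hochberg over all 5672 ORFs, threshold 0.05). Of the 47 genes, 34 were lower and 0 higher, beside 9.29% and 3.44% of all ORFs. The median difference was -1.30 for the 40S genes and -0.02 for all ORFs, and all 47 estimates were below 0. RPS0A changed most and fell by 2.44 ± 0.35 (SE; limma adjusted p = 0.00635). RPS20 had the smallest difference, -0.23 ± 0.36 (limma adjusted p = 0.698). The count rests on single arrays: it was 0 without the 15 min arrays, when 0 of all ORFs passed as well, and 2 without those of 120 min. Without one array it was 7 (CO 15 min), 9 (N2 15 min), 12 (N2 120 min), 17 (CO 120 min) or 22 (CO 30 min). With quantile normalization between arrays it was 7.

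No 40S gene passed the test of CO against N2 in the mean over the 6 times. In the paired fit over times 0 of 47 genes and 0 of 5672 ORFs (0%) passed (limma, adjusted p under 0.05), and 10 genes and 584 ORFs had an unadjusted p under 0.05. The median CO minus N2 difference over the 47 genes was 0.11. The sign of the difference changed with time, however. The median over the 40S genes was 0.07, 0.76 and 0.54 at 15, 30 and 45 min, and -0.39, -0.30 and -0.16 at 60 min, 120 min and 24 h. At 30 and 45 min the 40S genes were therefore mostly less reduced in CO, and from 60 min on mostly more reduced in CO.

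At 15 min 4 of the 47 genes were at least 0.5 higher in CO than in N2, beside 2.64% of all ORFs, and 1 was at least 0.5 lower, beside 2.91%. At 30 min 31 of the 47 genes were at least 0.5 higher in CO than in N2, beside 13.4% of all ORFs, and 2 were at least 0.5 lower, beside 12.9%. At 45 min the numbers were 25 higher (11.7% of all ORFs) and 1 lower (13.1%). At 60 min they were 2 higher (9.5%) and 21 lower (13.7%), and at 120 min 5 higher (10.2%) and 13 lower (13.6%). At 24 h 5 were higher (15.6%) and 13 lower (25.7%), a share of lower genes near that of all ORFs. The large-subunit genes went the same way, with medians of 0.62, 0.29, -0.42 and -0.17 at 30, 45, 60 and 120 min. The median CO minus N2 difference over a list of 18 factors that assemble the 40S subunit was 0.02, 0.12, -0.26 and 0.02 at those times.

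**Figure D2:**
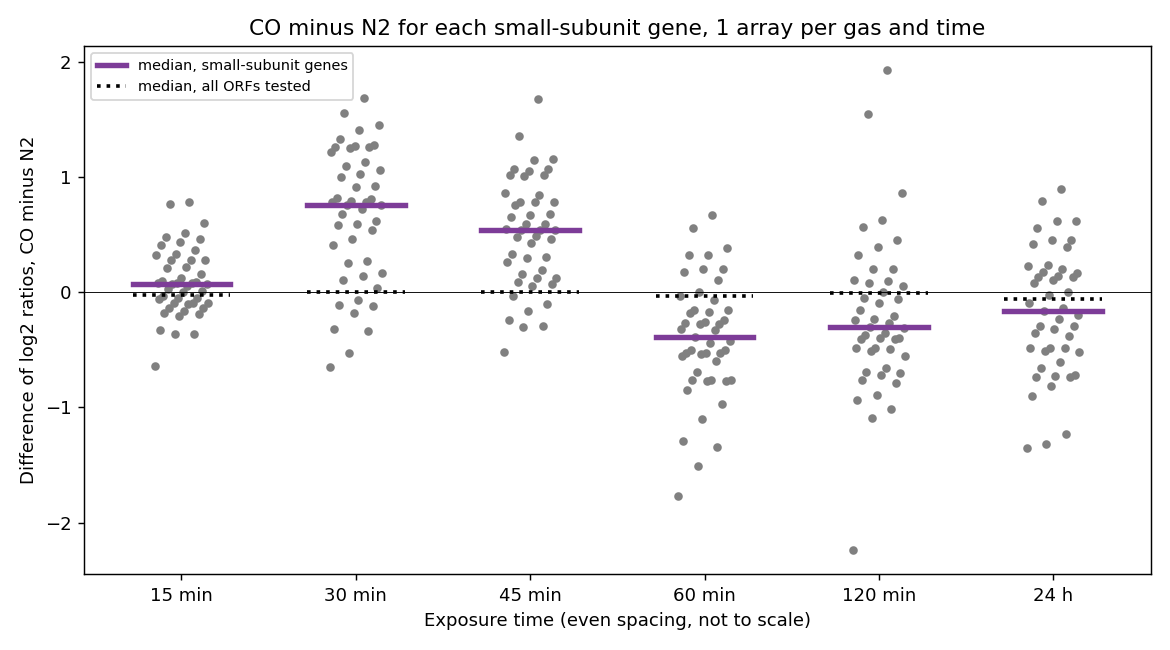
Difference of the log2 ratios, CO minus N2 (vertical axis), at each exposure time (horizontal axis, even spacing); 1 point is 1 of the 47 small-subunit genes, from 1 array of each gas. Purple bars are the medians of these genes, 0.76 at 30 min and -0.39 at 60 min, and dotted bars the medians of all 5672 ORFs, which lie between -0.06 and 0.00.

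The change of sign was then tested as a contrast, the CO minus N2 difference at 30 and 45 min less that at 60 and 120 min; this test was added after the data were seen. It left 2 residual degrees of freedom, and 0 of 47 genes and 0 of all ORFs passed (limma; the smallest adjusted p was 0.338). At an unadjusted p under 0.05 there were 30 of the 47 genes, or 63.8%, beside 735 ORFs, or 13%. The times were split where the medians of these same genes changed sign on these arrays, which favours small p-values among them. The 47 genes also share the same arrays and are not independent of each other. The excess over all ORFs is therefore no test of the change of sign, and no conclusion is drawn from it. The contrast was above 0 for 44 genes, with a median of 0.95, beside a median of 0.02 over all ORFs. The 44 genes with a contrast above 0 were thus less reduced in CO early, relative to N2, than they were late, and none of them passed the test singly.

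Averaged over the 6 arrays of a gas, 27 of the 47 genes were lower in CO than in air and 0 higher, beside 19.4% and 12.7% of all ORFs (limma, adjusted p under 0.05). In N2 28 were lower and 0 higher, beside 20.2% and 17.6%. The median of the gene means was -0.84 in CO and -1.06 in N2, beside -0.04 and -0.02 for all ORFs. The count in CO leans on the late arrays. It was 7 without the 60 min arrays of both gases, 11 without those of 120 min, and 12, 9 or 16 without the CO array of 60 min, 120 min or 24 h. The N2 count stayed between 20 and 33 whichever time or array was left out. With exposure time as a block, which by its construction takes the differences between times out of the error, 37 were lower in CO and 36 in N2, beside 30.4% and 30.7% of all ORFs; genes whose call changes with the block are named below. Among the genes described in full below, RPS0B, RPS18B, RPS23A and RPS23B stayed lower in CO in all 25 alternative settings. RPS0A, RPS1A, RPS1B, RPS9B, RPS18A, RPS22B and RPS28B missed the threshold in CO in at least 2 settings, with limma adjusted p up to 0.244, and RPS13 did so in N2, with adjusted p up to 0.0903. The 2 comparisons may share air RNA, which the labels do not say, so their calls are not set against each other here.

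**Figure D3:**
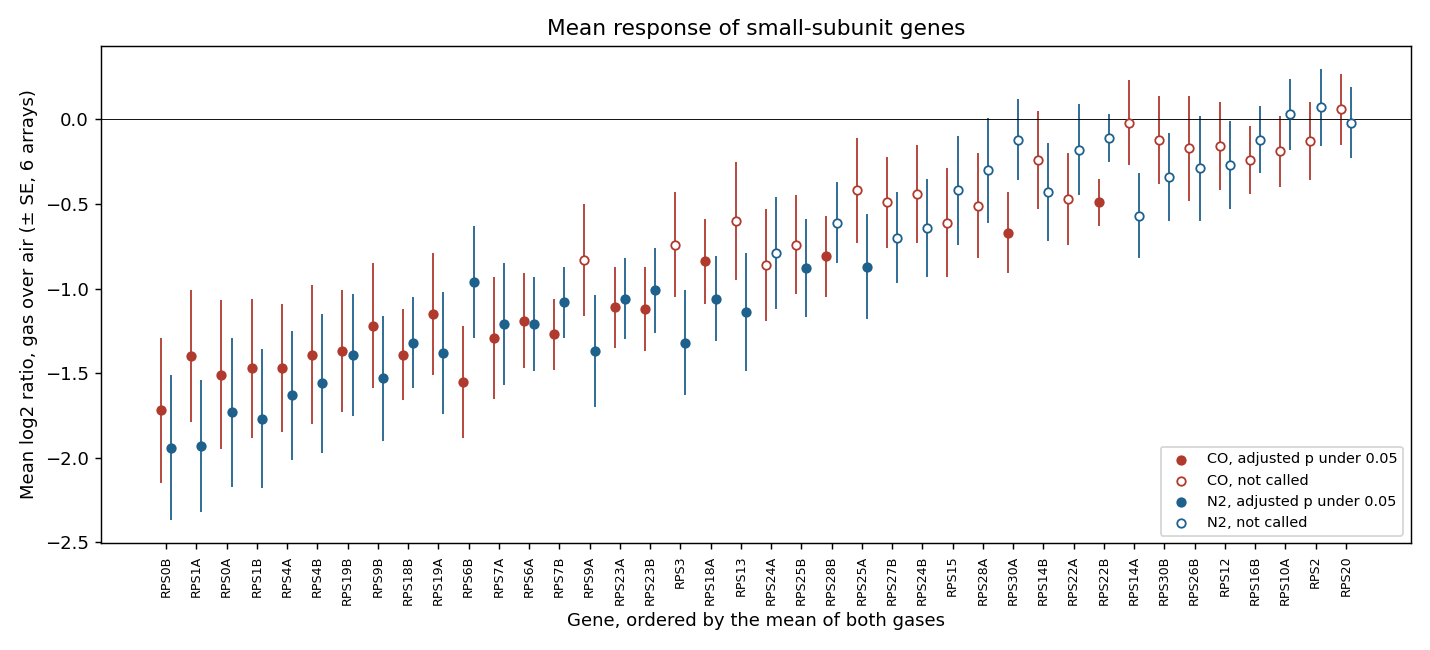
Mean log2 ratio of gas over air (vertical axis; bars are ± 1 SE from limma, 6 arrays per gas) for 40 of the 47 small-subunit genes, ordered along the horizontal axis by the mean of all 12 arrays. CO (red) stands left of N2 (blue) for each gene and filled points passed an adjusted p of 0.05; the order runs from RPS0B at -1.83 to RPS20 at 0.02.

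The proteins of the body and platform of the subunit included the genes with the lowest values. Rps0 sits at the junction of head and body and is needed to finish the 40S subunit, and Rps1 lies on the platform beside the exit of the mRNA channel. RPS0B had -3.26, -1.81 and 0.02 as lowest, median and highest of its 6 values in CO, and -3.21, -2.28 and 0.11 in N2. Its mean was -1.72 ± 0.43 in CO and -1.94 ± 0.43 in N2 (SE, 6 arrays each; limma adjusted p = 0.00975 and 0.00473). In both gases the value near 0 was that of 15 min and the lowest that of 120 min, and the ranges of the gases overlapped almost entirely.

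RPS0A went the same way, with 0.15, -0.37, -1.42, -1.92, -3.22 and -2.27 in CO in time order. In N2 it had 0.14, -0.83, -2.09, -2.12, -3.42 and -2.07. The value of -3.42 was the lowest of any 40S gene on any array. RPS1A had -0.12, -0.40, -1.03, -1.45, -3.33 and -2.06 in CO, against -0.19, -1.96, -2.10, -1.77, -3.38 and -2.19 in N2. Here the gases were apart at 30 and 45 min and within 0.32 of each other at the other 4 times. RPS1B averaged -1.47 ± 0.41 in CO and -1.77 ± 0.41 in N2 (SE, 6 arrays each; limma adjusted p = 0.016 and 0.00555).

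Rps4, Rps6, Rps7, Rps9 and Rps23 are further proteins of the body. Rps6 is the 40S protein phosphorylated downstream of TORC1, and Rps9 and Rps23 lie where the codon is read and act on its accuracy. All tested genes of these 5 proteins were lower in both gases except RPS9A in CO (-0.83 ± 0.33, SE; limma adjusted p = 0.0668). With time as a block RPS9A passed in CO as well (limma adjusted p = 0.000204). RPS4A and RPS4B averaged -1.47 and -1.39 in CO and -1.63 and -1.56 in N2. RPS6B was the only one of the 47 genes below -0.6 at 15 min, with -0.64 in CO, against 0.00 in N2. At 30 min it had -0.61 in CO, against 0.04 in N2, where its paralog RPS6A had -0.65 in CO and -1.44 in N2.

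Other body genes stayed closer to the air level. RPS14A and RPS14B encode a platform protein that in yeast binds its own RNA and limits the output of RPS14B. RPS14A averaged -0.02 ± 0.25 in CO and -0.57 ± 0.25 in N2, and RPS14B -0.24 ± 0.29 in CO and -0.43 ± 0.29 in N2 (SE, 6 arrays each; none passed limma). With the time block RPS14A passed in N2 (limma adjusted p = 0.0144) and RPS14B in neither gas. RPS14A was at 0.48, 0.72 and 0.57 on the first 3 CO arrays, against -0.12, -0.28 and -0.79 in N2. RPS26B, for a protein that touches mRNA just upstream of the start codon, was above air at 15, 30 and 45 min in CO (0.74, 0.50 and 0.32) and at -1.75 by 120 min. RPS26B, RPS22A, RPS24A, RPS24B, RPS27B and RPS30B had a mean below 0 in both gases that did not pass in either without the time block. With it, RPS24A, RPS24B and RPS27B were lower in CO (limma adjusted p = 0.001, 0.0105 and 0.0122) and in N2 (0.00154, 0.00117 and 0.00161), RPS22A was lower in CO (0.0471) and RPS30B in N2 (0.0257), and RPS26B passed in neither gas. RPS30A, whose protein lies near the mRNA entry, averaged -0.67 ± 0.24 in CO and -0.12 ± 0.24 in N2 (SE; limma adjusted p = 0.0466 and 0.721). Its CO minus N2 mean of -0.56 ± 0.19 did not pass (limma adjusted p = 0.395).

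Of the 30 body genes tested, 19 were lower in CO and 18 in N2, with median means of -1.09 in CO and -1.07 in N2. Of the 17 head genes, 8 were lower in CO and 10 in N2, with medians of -0.74 in CO and -0.88 in N2. The sorting of proteins into head and body was written after the values were seen, and no test was made of the difference.

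In the head, the genes of Rps18 and Rps19 were lower in both gases. Rps19 is needed for the maturation of the head, and Rps18 reaches over to the large subunit. RPS19A and RPS19B averaged -1.15 and -1.37 in CO and -1.38 and -1.39 in N2, and all 4 means passed (limma adjusted p = 0.0245 and 0.012 in CO, 0.00933 and 0.00981 in N2). RPS19A was still at 0.07 in CO at 45 min, where it was at -1.61 in N2, and fell in CO to -3.10 at 120 min.

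RPS25A and RPS25B encode a head protein beside the exit site of tRNA that some viral and cellular internal ribosome entry sites require. They were lower in N2 (-0.87 ± 0.31 and -0.88 ± 0.29, SE; limma adjusted p = 0.0407 and 0.0302). In CO they averaged -0.42 ± 0.31 and -0.74 ± 0.29 (SE; limma adjusted p = 0.304 and 0.0663, and 0.0219 and 0.0103 with the time block). The CO minus N2 difference did not pass for either gene (limma adjusted p = 0.459 and 0.896).

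Single-copy genes have no paralog to share their output with. RPS3 encodes a protein at the mRNA entry channel that is marked with ubiquitin when ribosomes stall or decay. It had 0.16, 0.42, -0.42, -0.85, -1.79 and -1.93 in CO, against -0.12, -1.27, -1.58, -0.96, -1.89 and -2.07 in N2. At 30 min the gases were 1.69 apart, the widest gap of any of the 47 genes in that direction at 30 min. Its mean was -0.74 ± 0.31 in CO and -1.32 ± 0.31 in N2 (SE; limma adjusted p = 0.0804 and 0.00594, with 0.00291 in CO with the time block), and the CO minus N2 mean of 0.58 ± 0.22 did not pass (limma adjusted p = 0.427). RPS13, a body protein near the contact with the large subunit, was similar, at -0.60 ± 0.35 in CO and -1.14 ± 0.35 in N2 (SE; limma adjusted p = 0.204 and 0.023, with 0.00287 in CO with the time block). For RPS13 the CO minus N2 mean of 0.54 ± 0.18 did not pass either (limma adjusted p = 0.397).

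RPS15, whose protein has a tail that reaches the decoding centre, split the gases at late times. In CO it had 0.75, 0.47, -0.46, -1.16, -2.25 and -1.03. In N2 it had -0.03, -0.79, -0.16, -0.06, -0.01 and -1.48. It was thus at the air level at 120 min in N2 and well below it in CO, the widest gap of that sign among the 47 genes at any time (-2.24). Its means were -0.61 ± 0.32 in CO and -0.42 ± 0.32 in N2 (SE; limma adjusted p = 0.151 and 0.313). The CO minus N2 mean of -0.19 ± 0.39 did not pass (limma adjusted p = 0.898).

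RPS12, RPS2 and RPS20 averaged closer to air. RPS12 encodes a protein of the beak of the head. It had 0.59, 0.30, -0.15, -0.98, -1.35 and 0.62 in CO, against 0.31, -0.52, -0.31, -0.44, -1.12 and 0.45 in N2. Its 24 h values were the highest of its 6 in both gases, whereas for most 40S genes the 24 h value was still below -0.5.

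RPS2, for a protein at the mRNA entry channel, had 0.47, 0.57, 0.06, -0.35, -1.42 and -0.12 in CO, against 0.63, 0.53, -0.13, 0.15, -0.63 and -0.12 in N2. Its mean was -0.13 ± 0.23 in CO and 0.07 ± 0.23 in N2 (SE; limma adjusted p = 0.673 and 0.821). Still, RPS2 was lower at 60 and 120 than at 15 and 30 min, with a difference of -1.11 ± 0.26 (SE; limma adjusted p = 0.021): it followed the group's course from a start above air.

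RPS20, whose head protein is ubiquitinated on collided ribosomes, had 0.45, 0.28, 0.50, 0.02, -0.66 and -0.25 in CO, against 0.50, -0.75, 0.17, 0.87, -0.66 and -0.23 in N2. It was the only gene of the 47 with a positive mean over the 12 arrays (0.02), and neither gas nor late against early time passed. RPS31, which encodes a 40S protein joined to ubiquitin in its precursor, had values on 10 arrays. In CO these were 0.46, 0.07, 0.39, -1.43 and -0.46 at 15, 30, 45 and 120 min and 24 h, against 0.77, 0.39, -0.27, -1.23 and -0.47 in N2. On both 120 min arrays RPS31 was more than 2-fold below air.

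Among the tested genes with a paralog, RPS10A and RPS16B stood nearest to air. RPS10A encodes a beak protein on the outside of the head. It had 0.34, 0.07, 0.46, -1.16, -0.79 and -0.06 in CO, against 0.67, 0.25, -0.55, -0.19, -0.28 and 0.26 in N2. Its mean in N2 was 0.03 ± 0.21 (SE; limma adjusted p = 0.93), and with the 15 min value subtracted from each later one it was -0.77 and passed (adjusted p = 0.0337). The error of the subtracted array is shared by all later values and is not in that p-value. RPS16B, whose protein reaches the tRNA in the peptidyl site, averaged -0.24 ± 0.20 in CO and -0.12 ± 0.20 in N2 (SE; limma adjusted p = 0.354 and 0.658). RPS16B nevertheless fell between early and late arrays, by 0.83 ± 0.21 (SE; limma adjusted p = 0.0303).

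Few 40S genes passed in the comparison of 24 h with earlier times, a smaller share in each direction than of all ORFs. Against the mean of the earlier periods, 3 of 47 were lower and 1 higher, beside 25.1% and 22.5% of all ORFs (limma, adjusted p under 0.05). Relative to that mean, which includes the 15 min arrays, RPS3 was lower by 1.14 ± 0.37, RPS7A by 1.33 ± 0.43 and RPS7B by 0.77 ± 0.28 (SE, limma adjusted p = 0.0228, 0.024 and 0.0416). RPS12 was higher by 0.88 ± 0.28 (SE, limma adjusted p = 0.0219). The number lower was 0 without the CO array of 24 h or the arrays of 15 min and 12 without the arrays of 120 min; quantile normalization or array weights left 0 in either direction. RPS7A had -2.25 in CO and -2.43 in N2 at 24 h, and in N2 this was its lowest value of the 6. In CO its lowest was -2.83, at 120 min. RPS14B had the highest 24 h value of the 47 genes in N2, 0.74, against -0.07 in CO at that time.

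Of the 8 genes without 12 values, RPS29A and RPS29B, for a small zinc-binding protein of the head, moved alike. RPS29A had 0.79, 0.77, -0.10, 0.00, -1.34 and -0.34 in CO, and 0.71, 0.66, -0.43, -1.02 and 0.57 in N2, where 60 min was missing. RPS29B had 0.11, 0.81, -0.21, 0.00, -1.48 and 0.00 in CO, and 1.13, 0.74, -0.71, -1.21 and 0.85 in N2, again without 60 min. Both were above air at 30 min in both gases, unlike most of the group, and lowest at 120 min. Whether the values of exactly 0.00 are measurements or filled in is not known. RPS21A, with 11 values, ranged from -0.37 to 0.39 in CO and from -2.00 to 0.16 in N2, and RPS21B, with 10, from -1.24 to 0.86 in CO and from -1.01 to 0.31 in N2. RPS10B, with 11, ranged from -1.74 to -0.22 in CO and from -1.06 to 0.12 in N2, and RPS27A, with 10, from -1 to 0.14 in CO and from -1.24 to 1.13 in N2. RPS16A had 2 values, -0.56 in CO at 60 min and 0.17 in N2 at 120 min. With the 54 genes of at least 10 values in the fit, in which missing arrays were dropped, 28 were lower in CO and 28 in N2.

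Both paralogs had all 12 values for 18 pairs. On most of these the A and B genes ran close together. The median absolute difference between the 12-array means of the A and B gene was 0.13, whereas that between genes of different pairs was 0.46 (18 and 612 comparisons). These values are descriptions, since signal shared between paralogous probes would bring the A and B values together and its part was not tested. The pairs differed from each other more than their copies did: the pair mean was -1.72 for RPS0, -1.64 for RPS1 and -1.51 for RPS4, and -0.32 for RPS14, -0.31 for RPS22 and -0.31 for RPS30.

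**Figure D4:**
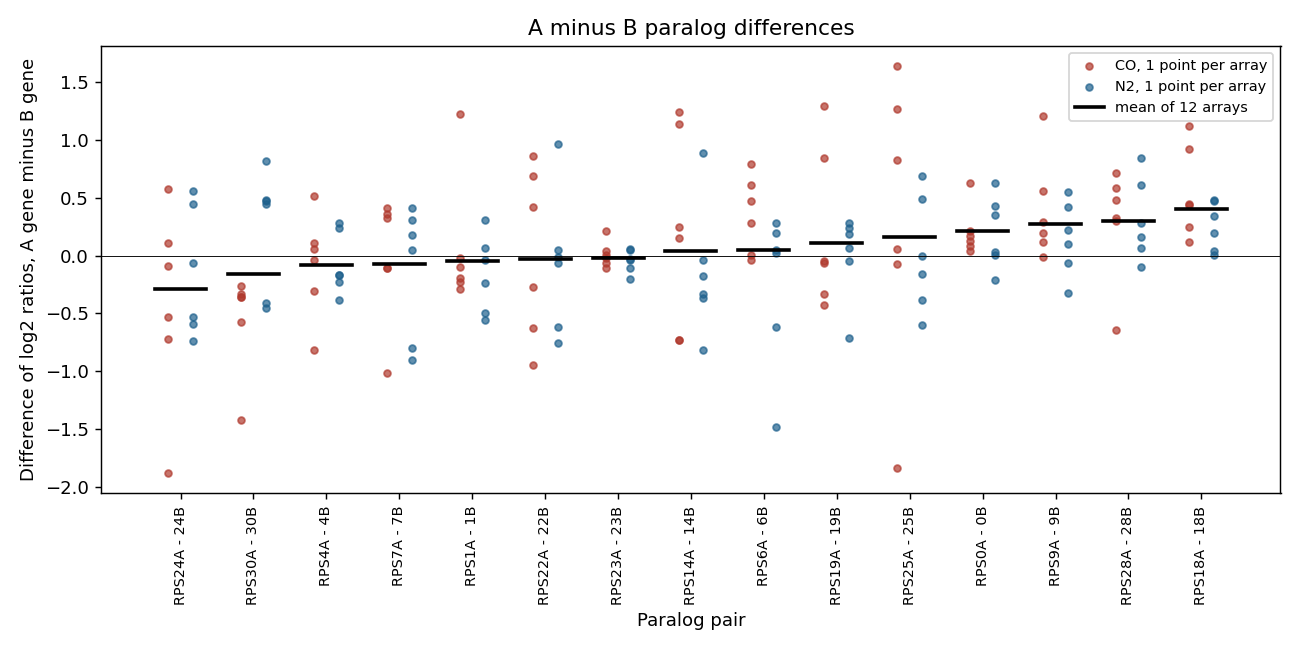
Difference of the log2 ratios of the A and B genes on each array (vertical axis, A minus B) for 15 of the 18 paralog pairs with 12 values, ordered along the horizontal axis by the mean (black bar, 12 arrays), with CO left of N2 in each pair. RPS24 lies lowest with a mean of -0.29 and RPS18 highest with 0.40, while RPS23 stays within 0.21 of 0 on every array.

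The A minus B difference was tested per gas over all 49 pairs of genes on the arrays whose names differ in A and B alone and that had 12 values. Among the 18 pairs of the 40S subunit 2 passed in CO and 1 in N2, beside 18.4% and 12.2% of all 49 pairs (limma, Benjamini-Hochberg over the 49, threshold 0.05). The 49 are almost all ribosomal and are no general background: they hold these 18 pairs and 29 pairs of the large subunit. Of those 29, 6 passed in CO and 4 in N2. An exact two-sided sign-flip test over the 6 times, whose smallest p is 0.0312, called 0 pairs after adjustment. After adjustment over 49 pairs it can call none unless most of them reach that smallest p, so this 0 does not weigh on the limma calls.

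RPS18 was one of the pairs that passed in CO. RPS18A had -0.22, -0.19, -0.84, -1.12, -2.14 and -0.51 in CO, and RPS18B -0.34, -0.64, -1.09, -2.04, -2.58 and -1.63. In N2 RPS18A had -0.12, -1.41, -1.30, -0.79, -1.83 and -0.93, and RPS18B -0.16, -1.42, -1.64, -1.27, -2.03 and -1.40. RPS18A was above RPS18B on all 12 arrays, by the least at 30 min in N2 (0.01) and by the most at 24 h in CO (1.12). The difference averaged 0.55 ± 0.13 in CO and 0.26 ± 0.13 in N2 (SE; limma adjusted p = 0.0173 and 0.315). Without the 60 min arrays the CO difference no longer passed (limma adjusted p = 0.0747).

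Without the time block, the other pairs shown in the plot of paralogs did not pass in either gas. RPS28A was above RPS28B on 10 of 12 arrays, with a mean difference of 0.30. Rps28 is a head protein, and in yeast it binds the 3′ end of RPS28B mRNA and promotes its decay. RPS28A had 0.72, 0.26, -0.28, -0.66, -1.93 and -1.18 in CO, against 0.56, 0.37, -0.35, -0.42, -1.52 and -0.44 in N2. RPS28B had 0.00, -0.07, -0.58, -1.25, -1.29 and -1.66 in CO, against -0.05, -0.48, -0.42, -0.70, -1.68 and -0.34 in N2. The order of the copies turned in CO at 120 min, where RPS28A was 0.64 below RPS28B.

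RPS24A averaged 0.29 less than RPS24B over the 12 arrays (-0.82 against -0.54). The largest gap was in CO at 60 min, where RPS24A was at -2.27 and RPS24B at -0.39. At 120 min in CO RPS24B had fallen to -2.21 and lay below RPS24A (-1.63). In N2 the values at 120 min were -2.26 for RPS24A and -1.73 for RPS24B. Apart from the CO array of 60 min, the A minus B difference ranged from -0.72 to 0.58 in CO and from -0.74 to 0.56 in N2.

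RPS9A averaged -1.10 over the 12 arrays and RPS9B -1.37. They were within 0.56 of each other except in CO at 24 h, where RPS9A was at -0.49 and RPS9B at -1.70. RPS0A lay above RPS0B on 11 of 12 arrays, by 0.21 on average, with the widest gaps of 0.63 in CO at 24 h and in N2 at 30 min. For RPS9 and RPS0 the A copy was thus the less reduced on most arrays.

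RPS22 and RPS23 had the smallest mean differences but are unlike each other. Rps23 carries a conserved modified proline at the decoding centre, and Rps22 lies in the body. RPS23A had -0.17, -0.41, -0.95, -1.41, -2.08 and -1.63 in CO, and RPS23B -0.11, -0.42, -0.84, -1.62, -2.12 and -1.61. In N2 RPS23A had -0.08, -1.22, -1.26, -0.97, -1.67 and -1.15, and RPS23B -0.05, -1.18, -1.32, -0.86, -1.72 and -0.95. No array separated RPS23A from RPS23B by more than 0.21.

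RPS22A and RPS22B had a mean difference of -0.03 that came from gaps of both signs, from -0.95 in CO at 120 min to 0.97 in N2 at 60 min. RPS22A ranged from -1.69 to 0.43 in CO and from -1.21 to 0.56 in N2. RPS22B ranged from -0.88 to -0.23 in CO and from -0.59 to 0.35 in N2, the narrowest range of the 36 paired genes measured on all arrays in CO. RPS22B was below air on all 6 CO arrays and its mean there of -0.49 ± 0.14 passed, while in N2 it was -0.11 ± 0.14 (SE; limma adjusted p = 0.0185 and 0.553). Its CO minus N2 mean of -0.38 ± 0.17 did not pass (limma adjusted p = 0.481). RPS30A was below RPS30B on all 6 CO arrays, with a mean A minus B difference of -0.55 ± 0.19 (SE; limma adjusted p = 0.0538, and 0.02 with the time block), and above it on 4 of the 6 N2 arrays. Wider swings between copies were seen for RPS25, from -1.84 in CO at 120 min to 1.64 in CO at 30 min, and for RPS6, where the copies were 1.48 apart in N2 at 30 min.

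Some of these genes are neighbours. In the order of R64, RPS6B and RPS9B on chromosome II and RPS6A and RPS9A on chromosome XVI each have 8 genes between them. On II, RPS6B averaged -1.25 and RPS9B -1.37, and on XVI, RPS6A averaged -1.20 and RPS9A -1.10. RPS14B and RPS22A are next to each other on chromosome X, with means of -0.34 and -0.33. Their paralogs lie apart, RPS14A on III and RPS22B on XII, and both averaged -0.30. Whether position plays a part was not tested.

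Other genes of the same machinery place these values. Of 68 tested genes for large-subunit proteins, 37 were lower and 1 higher in CO and 38 lower in N2, with median means of -0.90 in CO and -0.96 in N2. Of the 18 tested 40S assembly factors 9 were lower in CO, and 9 lower and 1 higher in N2. For these lists and the initiation factors below, the shares of all ORFs were 19.4% lower and 12.7% higher in CO. In N2 they were 20.2% and 17.6%. With the time block 53 large-subunit genes were lower and 4 higher in CO, and 54 lower and 1 higher in N2. The block gave 11 assembly factors lower and 1 higher in CO, and 11 lower and 3 higher in N2. For the initiation factors it gave 8 lower and 1 higher in CO, and 13 lower and 1 higher in N2. The block called 30.4% of all ORFs lower and 25.4% higher in CO, and 30.7% lower and 28.2% higher in N2. RRP12, an export factor of pre-40S particles, averaged -1.55 ± 0.30 in CO and -1.42 ± 0.30 in N2 (SE; limma adjusted p = 0.00255 and 0.00349). Of 20 tested initiation factor genes 6 were lower and 1 higher in CO, and 10 lower and 1 higher in N2; NIP1, a subunit of the factor eIF3 that binds the 40S subunit, averaged -1.42 ± 0.33 in CO and -1.44 ± 0.33 in N2 (SE; limma adjusted p = 0.00675 and 0.00555). At 24 h against 120 min the assembly factors had median steps of -0.26 in CO and -0.03 in N2, and the initiation factors -0.30 and -0.60. The 40S genes' steps to 24 h, given above, were positive in both gases.

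The small subunit of the mitochondrial ribosome translates the mRNAs of the mitochondrial genome. Of its 30 tested genes 3 were lower and 3 higher in CO, beside 19.4% and 12.7% of all ORFs. In N2 3 were lower and 6 higher, beside 20.2% and 17.6%. With the time block 8 were lower and 8 higher in CO, beside 30.4% and 25.4% of all ORFs. In N2 the block gave 5 lower and 9 higher, beside 30.7% and 28.2%. At 24 h against earlier times 17 of the 30 genes were higher and 1 lower, beside 22.5% and 25.1% of all ORFs. Of the 47 cytosolic genes 1 was higher and 3 were lower.

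Among 16 genes that act on ribosomal protein promoters or upstream of them, 4 were lower and 1 higher in each gas, a share of lower genes (25%) near the 19.4% and 20.2% of all ORFs in CO and N2. With the time block 7 were lower and 3 higher in CO, beside 30.4% and 25.4% of all ORFs. In N2 the block gave 8 lower and 4 higher, beside 30.7% and 28.2%. IFH1, the coactivator, averaged -1.23 ± 0.21 in CO and -0.99 ± 0.21 in N2 (SE; limma adjusted p = 0.00129 and 0.00344). FHL1, which recruits it, averaged -0.68 ± 0.15 in CO and -0.80 ± 0.15 in N2 (SE; limma adjusted p = 0.00513 and 0.00206). RAP1 averaged 0.22 ± 0.19 in CO and 0.39 ± 0.19 in N2, and SFP1 -0.34 ± 0.24 and -0.60 ± 0.24 in the same order (SE; neither passed in limma). With the time block SFP1 was lower in CO and N2 (limma adjusted p = 0.00905 and 0.000286) and RAP1 higher in N2 (limma adjusted p = 0.0047). ASC1, which encodes a scaffold protein bound to the head of the 40S subunit, averaged -0.83 ± 0.41 in CO and -0.63 ± 0.41 in N2 (SE; limma adjusted p = 0.13 and 0.238, and 0.00097 and 0.00448 with the time block). MBF1, for a coactivator that binds collided ribosomes, rose, by 0.84 ± 0.17 in CO and 1.16 ± 0.17 in N2 (SE; limma adjusted p = 0.00315 and 0.000612).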

How the data were processed

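Log2 ratios of Cy5 (gas) over Cy3 (room air of the same time) were used as deposited by the authors, given to 2 decimals for each ORF and array; RNA was amplified and dye-coupled, per the labels' protocols. The labels do not give the normalization, the log base or the probes. ORFs were named through R64 (5651 matched, 499 did not); no coordinates or sequences are printed.

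ORFs with 12 values (5672) entered linear models (lmFit and eBayes of limma 3.58.1, R 4.3.3), adjusted by Benjamini-Hochberg at 0.05: group means against 0 (10 residual degrees of freedom), CO minus N2 with time as a block (5), and 60 and 120 against 15 and 30 min and 24 h against the mean of 3 earlier periods with period and gas (7). The pairing of the gases rests on the shared times in the labels: deviations of same-time arrays correlated at r of 0.255 to 0.776, and the CO arrays of 30 and 45 min correlated best with the N2 array of 15 min. The fits were tested on simulated data.

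The genes, lists, tests and alternatives were chosen with earlier results of these data known. Given in full were the single-copy genes, the 4 lowest and 4 highest by 12-array mean, the 6 pairs with the largest and 2 with the smallest A minus B mean, and from each other list up to 4 genes by absolute mean with ASC1, IFH1, FHL1, SFP1 and RAP1. Some genes of the group are not reported here singly, though the counts and medians include them, and others were named after their values were seen. Genes known to be absent from the strain in whole or part (4 genes, 48 values) lay between -0.91 and 0.67. Alternatives were array centring, quantile normalization, a minimum of 10 values, array weights, the time block, one gas alone, subtraction of the 15 min values, and leaving out each time or array; the number of arrays limits the precision.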

Additional observations from a re-analysis of the deposited data

Results flagged for a closer look

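Each gene in each gas, and each A minus B difference given in full, was searched for 1 array far from the other 5, in 74 groups of 6 arrays, and 3 groups held one. RPS24B was at -2.21 in CO at 120 min, with the next of its CO values at -0.48 and the highest at 0.45. The RPS28 A minus B difference was -0.64 in CO at 120 min, while the other 5 CO arrays lay between 0.30 and 0.72. The RPS0 A minus B difference was 0.63 in CO at 24 h, while the other 5 CO arrays lay between 0.04 and 0.21. The rule marks about 1 in 20 groups of independent values from 1 normal distribution. The values here follow a time course, so that rate may not hold. In CO the lowest value fell at 120 min for 37 of the 47 genes.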

How the results depend on the processing

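The median of the 40S genes stayed below 0 in every alternative run, from -1.26 to -0.56 in CO and from -1.31 to -0.87 in N2, and 0 genes passed for CO against N2 in each. With exposure time as a block, the number lower was 37 in CO and 36 in N2, against 27 and 28 without it; without the block 0 passed for CO against N2, and with it 3 paralog pairs passed in CO and 1 in N2. Over all ORFs the block raised the number lower to 1727 in CO and 1740 in N2, against 1098 and 1146 without it, and the number higher to 1441 in CO and 1597 in N2, against 720 and 1001; it changed no 40S count by over 1.5 times. Quantile normalization left 0 genes lower and 0 higher at 24 h and 7 lower at 60 and 120 min; array weights left 0 and 0 at 24 h. The exact test called 0 pairs in CO and 0 in N2, which its smallest p and the adjustment made all but certain. With the 15 min difference subtracted 2 pairs passed in N2 in limma, where the error of the subtracted array is not in the p-value. Leaving out each time in both gases gave 7 to 32 lower in CO (11 without 120 min), 20 to 33 in N2, 0 to 12 lower (8 without 30 min) and 1 to 3 higher (2 without 120 min) at 24 h, 0 to 40 at 60 and 120 min (2 without 120 min), and 0 to 2 pairs in CO and 0 to 1 in N2. Leaving out single arrays gave 9 to 33 lower in CO (12, 9 and 16 without CO 60 min, 120 min and 24 h) and 20 to 32 in N2. For 24 h it gave 0 to 9 lower (0, 1 and 7 without CO 24 h, 45 min and 120 min, 9 and 1 without N2 30 min and 24 h) and 0 to 2 higher. For 60 and 120 min it gave 7 to 39 (7, 22 and 17 without CO 15, 30 and 120 min, 9 and 12 without N2 15 and 120 min). RPS10A in N2 turned to -0.77 with the 15 min values subtracted. The causes were not tested. The table holds no signal over background, so dim spots cannot be told from bright ones.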
